A study of Mus musculus with 9 samples.

Results

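The levels of 10 genes that are recurrently mutated in myeloid neoplasms, 6 epigenetic genes (Dnmt3a, Tet2, Asxl1, Ezh2, Idh1 and Idh2) and 4 splicing genes (Srsf2, Sf3b1, U2af1 and Zrsr2), were examined in bone marrow LSK cells of mice with and without Abi1. They were taken by symbol from the array's probe annotation, and 9 of the 10 have a probeset with exactly 1 symbol, among 30142 named genes in all. The expression of Zrsr2 was not analysed here. LSK cells are the lineage-negative marrow fraction sorted for Sca-1 and c-Kit, in which blood stem cells and early progenitors are found. Knockout (KO) mice (n = 4) were Abi1 fl/fl and carried Mx1-Cre, which made them Abi1(-/-) after poly(I:C). Wild-type (WT) mice (n = 5) were Abi1 fl/fl with no Cre. The floxed alleles and the poly(I:C) were common to all 9 mice, given as 3 injections at 8 to 9 weeks of age, with marrow taken at 12 to 14 weeks. Mx1-Cre is switched on by interferon, which poly(I:C) induces, and deletes in any cell that responds to it, not in LSK cells alone. Because Cre was present in KO mice alone, effects of Cre and of the deletion cannot be told apart. Recombination was tested by PCR on marrow. The labels call the arrays biological replicates, and each was read as 1 mouse, from 5 ng of total RNA.

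These genes act on chromatin, on the metabolism that feeds it or on the choice of splice sites, and mutations in them are found in clonal haematopoiesis, myelodysplastic syndromes and acute myeloid leukaemia. Dnmt3a writes methyl groups on cytosine and Tet2 oxidises them. Idh1 and Idh2 make 2-oxoglutarate, the cofactor of Tet2, and their mutant forms make 2-hydroxyglutarate, which inhibits it. Ezh2 is the catalytic subunit of Polycomb repressive complex 2, and Asxl1 is a partner of the histone deubiquitinase Bap1. Sf3b1 binds the branch point as part of the U2 particle, U2af1 and Zrsr2 recognise the 3′ splice site of major and minor introns, and Srsf2 binds exonic enhancers. Abi1, the deleted gene, encodes a subunit of the WAVE regulator of branched actin.

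Abi1 had log2 signals of 11.49 to 11.65 in the WT arrays and 5.59 to 6.11 in the KO arrays, a KO minus WT difference of -5.73 (SE 0.095, limma adjusted p = 7.42e-08), so the targeted gene matched the label in every array. Of the LSK and stem cell markers, 9 of 12 were measured and all 9 lay above background, Kit and Cd34 among them, while 1 of 5 measured T cell markers and 3 of 5 measured B cell markers did. Ly6a, which encodes Sca-1, had no probeset of its own. Kit was 13.82 in KO replicate 1 and 14.39 to 14.78 in the other arrays. Background was set per array at the percentile 95 of 1717 genes of smell and pheromone receptors, and ran from 5.29 to 5.64. Over genes above background, the median correlation with the other arrays was 0.973 for KO replicate 1 and 0.979 for WT replicate 5, which stood apart from the rest (0.987 to 0.992). In KO replicate 1 the 9 mitosis genes measured had a mean signal of 11.28, against 11.68 to 12.30 in the other arrays. The mean of the 9 mature neutrophil markers was 8.20 in KO replicate 1, 7.94 in KO replicate 2, 5.84 and 6.18 in KO replicates 3 and 4, and between 5.39 and 6.64 in WT. Of those markers, 6 lay above background, and Mmp8, Mmp9 and Ly6g did not. In WT replicate 5 the mean of the 5 erythroid markers measured, of 8 listed, was 6.11, over group ranges of 8.58 to 9.67 in KO and 6.11 to 9.77 in WT, and all 5 lay above background. The 4 measured megakaryocyte markers, of 5 listed, all lay above background too, with means of 10.46 to 11.05 in KO and 8.43 to 10.77 in WT, lowest in WT replicate 5. Marker means also differed between the groups, where 35.4% of all genes and 45.5% of genes above background had a lower mean in KO. In KO, means were higher for 9 of 9 neutrophil markers (median difference 0.58) and 4 of 4 megakaryocyte markers (0.73). So were those of 5 of 5 erythroid markers (0.28) and 5 of 5 B cell markers (0.28). They were lower for 7 of 9 LSK markers (-0.21). Of 6 monocyte and macrophage markers 4 were higher and 2 lower (0.16), and of 5 T cell markers 2 and 3 (-0.006). Without KO replicate 1 and WT replicate 5 these medians were 0.35, 0.24, 0.035, 0.29, -0.095, 0.018 and -0.015 in the same order. Means were then higher in KO for 8 of 9 neutrophil, 4 of 4 megakaryocyte, 3 of 5 erythroid and 4 of 5 B cell markers. They were lower for 7 of 9 LSK, 3 of 6 monocyte and macrophage and 3 of 5 T cell markers. The part of these cells in the results below was not tested, and values that move most without KO replicate 1 or WT replicate 5 are given without them too. In bulk samples, fewer cells of a type and less RNA per cell cannot be told apart.

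Upstream sequences of 3 of the genes are shown first: Sf3b1, whose difference rests on 1 KO array, Idh1, whose difference turns on 1 WT array, and Asxl1, whose difference has no settled sign. Each window runs from 250 to 31 bases before the transcription start that RefSeq's promoter table gives in build GRCm38.p6, read 5′ to 3′ on the gene's strand. Capitals mark GGGCGG, the core of the GC box bound by SP1, and CCAAT, the box bound by NF-Y, each searched on both strands, so that CCGCCC and ATTGG are the same motifs reversed.

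Sf3b1 (chr1:55027509-55027728, minus strand): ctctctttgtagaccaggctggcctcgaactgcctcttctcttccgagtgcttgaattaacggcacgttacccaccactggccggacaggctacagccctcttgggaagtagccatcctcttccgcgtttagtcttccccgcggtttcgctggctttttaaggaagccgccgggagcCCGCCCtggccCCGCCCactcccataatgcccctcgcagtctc
Idh1 (chr1:65186510-65186729, minus strand): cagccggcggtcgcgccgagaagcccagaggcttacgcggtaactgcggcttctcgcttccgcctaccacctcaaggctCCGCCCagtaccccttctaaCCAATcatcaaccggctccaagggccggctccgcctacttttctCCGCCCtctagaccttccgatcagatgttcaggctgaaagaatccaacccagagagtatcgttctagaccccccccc
Asxl1 (chr2:153345580-153345799, plus strand): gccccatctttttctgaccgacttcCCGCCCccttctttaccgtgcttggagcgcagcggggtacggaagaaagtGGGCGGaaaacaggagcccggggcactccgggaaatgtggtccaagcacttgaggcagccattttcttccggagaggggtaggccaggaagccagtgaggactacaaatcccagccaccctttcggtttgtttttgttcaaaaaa

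The Sf3b1 window held 15 CpG dinucleotides and 2 GGGCGG matches. The Idh1 window held 17 CpG, 2 GGGCGG matches and 1 CCAAT match, and the Asxl1 window 11 CpG and 2 GGGCGG matches. These 3 windows lie outside the annotated gene. That is not so for every gene, since the annotated gene can extend farther upstream than that start. All 220 bases of the Dnmt3a, Tet2, Idh2, Srsf2 and U2af1 windows and 210 of those of the Ezh2 window lie inside the gene. These windows are not printed, but they are part of the counts over all 10 genes. Over all 10 genes, Zrsr2 included and taking the start farthest upstream where the promoter table lists several, the windows held 11 to 46 CpG, against a median of 5 in the 32851 windows of the same length in the table. GGGCGG occurred in 8 of the 10 windows and in 28.5% of all windows, and CCAAT in 5 of the 10 and in 31% of all. These matches describe letters in the windows and are no evidence of binding.

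All 9 measured genes were detected in LSK cells of both genotypes: each lay above background in 9 of 9 arrays. The mean exceeded background by at least 3.71 log2 units, the value for Dnmt3a. Brightness depends on a probeset's own probes, so these levels do not rank the genes against each other. None of the 9 passed an adjusted p of 0.05 in limma, and Abi1 alone did among all genes (0.00332%). The median difference, KO minus WT, was -0.069 on the log2 scale for the 9 genes, 0.018 for genes above background and 0.034 for all genes. Means were lower in KO for 7 of the 9, against 35.4% of all genes and 45.5% of genes above background. At an unadjusted limma p under 0.05 there was 1 of 9, Tet2, with a lower mean in KO. The share was 5.01% of all genes (3.82% higher and 1.19% lower) and 6.93% of genes above background. Without KO replicate 1, without WT replicate 4 or without WT replicate 5 none of the 9 had such a p in limma. Without WT replicate 3 Tet2 did not have one either, and Idh1 did, with a higher mean in KO. After quantile normalization 4 of the 9 had such a p, Tet2, Ezh2, Idh2 and Sf3b1, all with lower means in KO and each with a limma adjusted p of 0.819. Of all 30142 genes, 1642 had such a p after quantile normalization, against 1509 with the deposited values. The groups overlapped for all 9 genes, where 0.856% of all genes showed no overlap, 0.68% with KO higher and 0.176% with KO lower. Among genes above background, 1.2% showed no overlap.

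**Figure D1:**
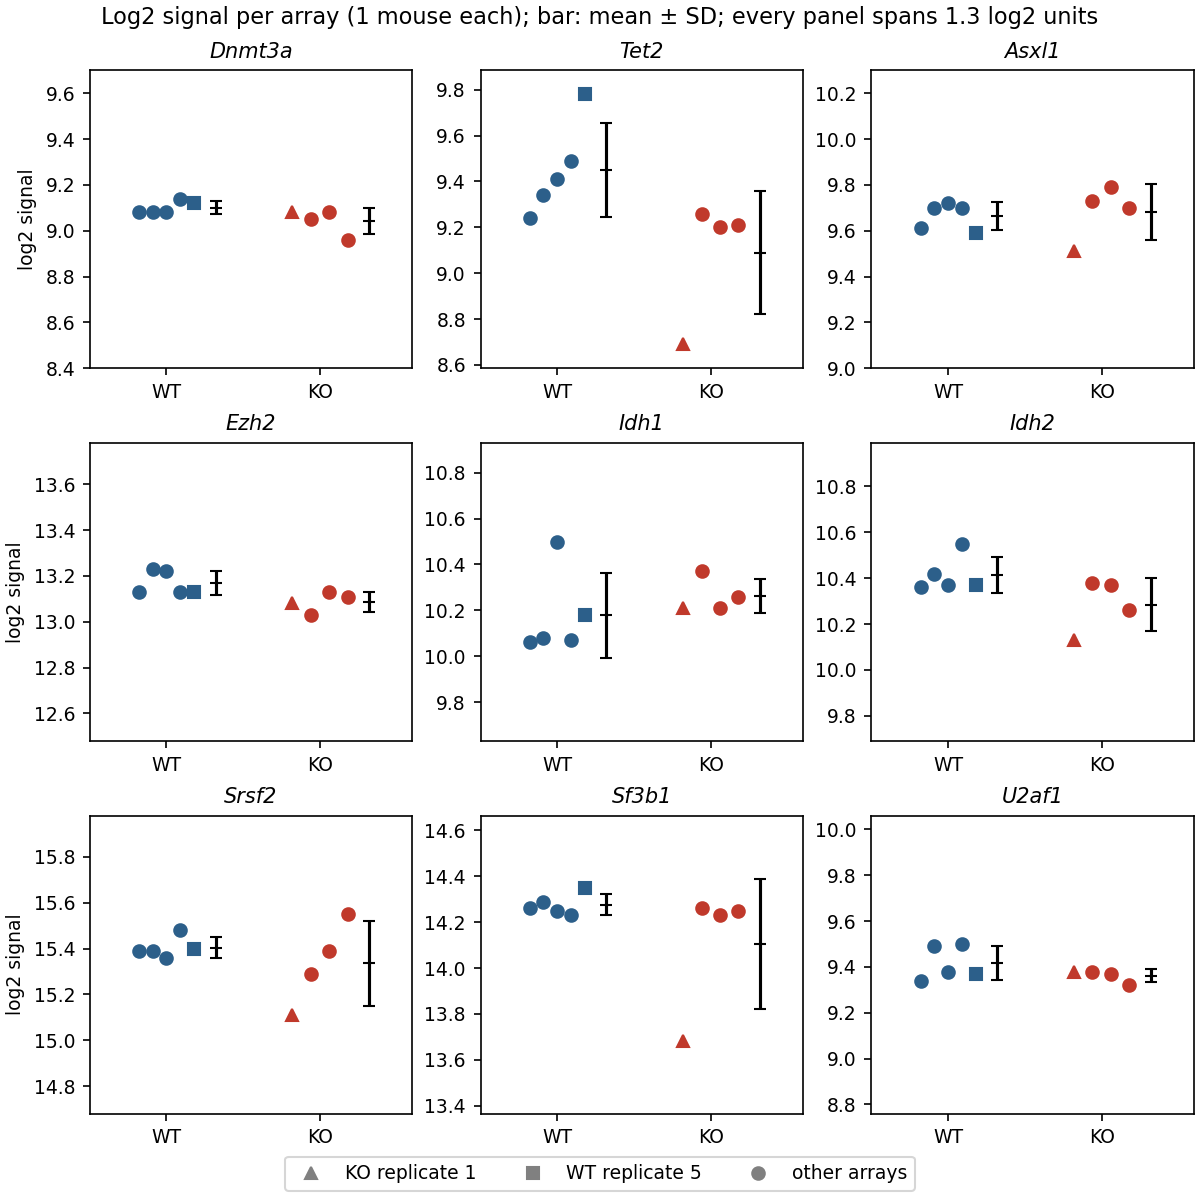
Log2 signal of each measured gene in every array, with WT in blue and KO in red. The bar beside each group is its mean ± SD, every panel spans the same range, the triangle is KO replicate 1 and the square is WT replicate 5. KO replicate 1 lies below the other KO arrays for Tet2 (8.69) and Sf3b1 (13.68), while Dnmt3a and U2af1 each span 0.18 over all arrays.

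The precision differed between the genes and set what could be seen. The 95% interval of the difference covered 0 for 8 of the 9, and for 8 of the 9 it lay within 0.5 log2 units of 0 on both sides, a change of 1.41-fold. For 6 it lay within 0.3 log2 units, which is 1.23-fold. These counts depend on the scaling: the interval covered 0 for 5 and lay within 0.5 for 7 and within 0.3 for 5 after quantile normalization, and for 8, 7 and 5 with each array centred on its median. The narrowest intervals were those of Dnmt3a and Ezh2, with standard errors of 0.037 and 0.039, against a median of 0.12 over genes above background. Tet2 had the widest. The small errors depend on the model. With genes below background left out of limma those of Dnmt3a and Ezh2 were 0.053 and 0.055. With an intensity trend in limma they were 0.055 and 0.057. Values carry 2 decimals and some repeat: 5 of the 9 arrays share one value for Dnmt3a and 4 for Ezh2, which makes their spread small.

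**Figure D2:**
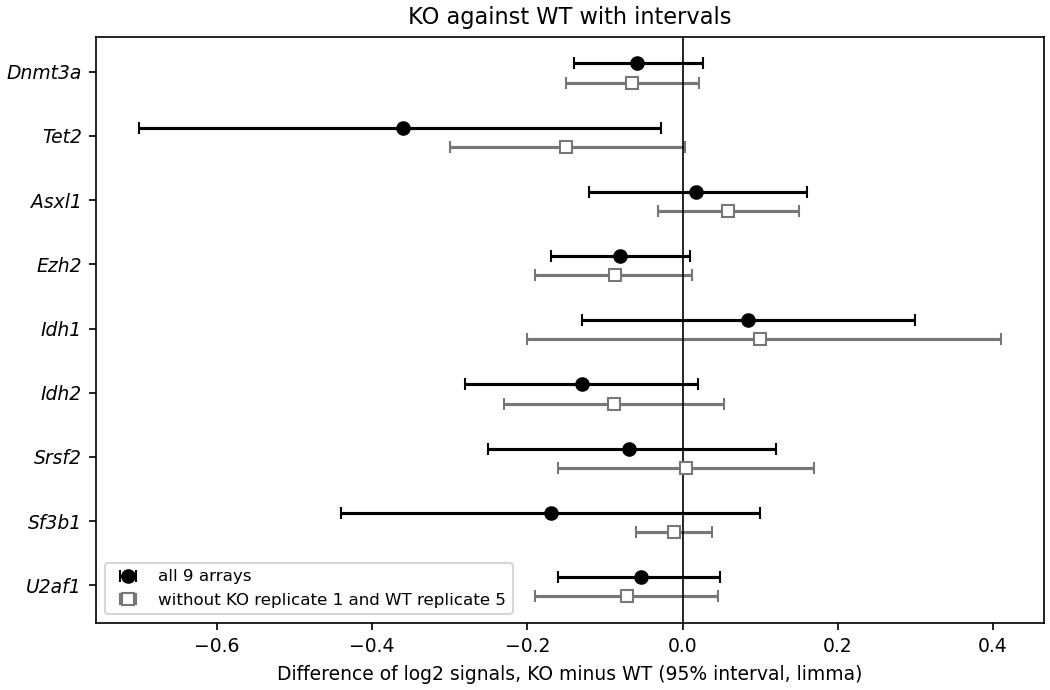
Difference of log2 signals, KO minus WT, with its 95% interval from limma, for the 9 genes. Filled circles use all 9 arrays, and open squares leave out KO replicate 1 and WT replicate 5. The difference of Tet2 goes from -0.36 to -0.15 and that of Sf3b1 from -0.17 to -0.011.

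Among the genes of DNA methylation, Dnmt3a, the de novo methyltransferase gene, held nearly one level. Its log2 signals were 9.08, 9.05, 9.08 and 8.96 in KO replicates 1 to 4 and 9.08, 9.08, 9.08, 9.14 and 9.12 in WT replicates 1 to 5. The groups overlapped at 9.08, and KO replicate 4 was the lowest array. The difference was -0.058 (SE 0.037, interval -0.14 to 0.027, limma adjusted p = 0.786), a KO level of 0.961 of WT with bounds of 0.906 and 1.02 on the deposited scale. With each array centred the difference was -0.11 (interval -0.24 to 0.015, limma adjusted p = 0.87). Without KO replicate 4 it was -0.03 (limma adjusted p = 0.766).

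Tet2, the 5-methylcytosine dioxygenase gene, had the largest difference of the 9. Its signals were 8.69, 9.26, 9.20 and 9.21 in KO and 9.24, 9.34, 9.41, 9.49 and 9.78 in WT. KO replicate 2 lay just above WT replicate 1, the one crossing between the groups, while KO replicate 1 was the lowest array and WT replicate 5 the highest. The difference was -0.36 (SE 0.15, interval -0.70 to -0.028), a KO level of 0.778 of WT with bounds of 0.617 and 0.981. It did not pass (limma p = 0.0367, adjusted p = 0.786), and the exact two-sided permutation test over 126 splits gave p = 0.0238, unadjusted, where the smallest possible is 0.00794. With both arrays that stood apart left out, the difference was -0.15 (interval -0.30 to 0.0038, limma adjusted p = 0.901). Without KO replicate 1 alone it was -0.23 and without WT replicate 5 alone -0.28.

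The isocitrate dehydrogenase genes supply 2-oxoglutarate in the cytosol (Idh1) and the mitochondrion (Idh2). Idh1 had signals of 10.21, 10.37, 10.21 and 10.26 in KO and 10.06, 10.08, 10.50, 10.07 and 10.18 in WT. WT replicate 3 lay above every KO array and the other WT arrays lay below every KO array. The difference was 0.085 (SE 0.095, interval -0.13 to 0.30, limma adjusted p = 0.799). Without WT replicate 3 it was 0.17 (interval 0.046 to 0.28, limma adjusted p = 0.729), and with each array centred 0.028.

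Idh2 was 10.13, 10.38, 10.37 and 10.26 in KO and 10.36, 10.42, 10.37, 10.55 and 10.37 in WT. KO replicates 1 and 4 lay below the WT range and the other KO arrays within it. The difference was -0.13 (SE 0.065, interval -0.28 to 0.02, limma adjusted p = 0.786), with an exact permutation p of 0.103. Without KO replicate 1 it was -0.077, and with each array centred -0.19.

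Of the histone regulators, Ezh2 had signals of 13.08, 13.03, 13.13 and 13.11 in KO and 13.13, 13.23, 13.22, 13.13 and 13.13 in WT. The groups met at 13.13, with WT replicates 2 and 3 highest. The difference was -0.081 (SE 0.039, interval -0.17 to 0.0099, limma adjusted p = 0.786), a KO level of 0.946 of WT with bounds of 0.888 and 1.01. After quantile normalization it was -0.19 (interval -0.30 to -0.078, limma adjusted p = 0.819).

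Asxl1 had signals of 9.51, 9.73, 9.79 and 9.70 in KO and 9.61, 9.70, 9.72, 9.70 and 9.59 in WT. The KO arrays spanned the whole WT range, with KO replicate 1 lowest and KO replicate 3 highest. The difference of 0.018 (SE 0.062, interval -0.12 to 0.16, limma adjusted p = 0.931) has no settled sign, since it was -0.038 with each array centred on its median, -0.017 without KO replicate 3 and 0.076 without KO replicate 1.

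Sf3b1 showed how a single array can set a difference among the splicing genes. Its signals were 13.68, 14.26, 14.23 and 14.25 in KO and 14.26, 14.29, 14.25, 14.23 and 14.35 in WT. KO replicate 1 lay far below the other 8 arrays, which spanned 14.23 to 14.35. The difference was -0.17 (SE 0.12, interval -0.44 to 0.10, limma adjusted p = 0.786). It was -0.029 without KO replicate 1, and -0.011 (interval -0.06 to 0.038) without that array and WT replicate 5. After quantile normalization of all 9 arrays it was -0.31 (interval -0.60 to -0.029, limma adjusted p = 0.819).

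Srsf2, the SR protein gene, had signals of 15.11, 15.29, 15.39 and 15.55 in KO and 15.39, 15.39, 15.36, 15.48 and 15.40 in WT. The KO arrays ran from below to above the WT range, with SDs of 0.18 in KO and 0.045 in WT. Its difference was -0.069 (SE 0.081, interval -0.25 to 0.12, limma adjusted p = 0.802), and 0.006 without KO replicate 1. After quantile normalization it was -0.23 (interval -0.49 to 0.034, limma adjusted p = 0.819), and with each array centred -0.13.

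U2af1, which encodes the small subunit of the U2 auxiliary factor, was 9.38, 9.38, 9.37 and 9.32 in KO and 9.34, 9.49, 9.38, 9.50 and 9.37 in WT. WT replicates 2 and 4 were highest and the other arrays lay together. The difference was -0.053 (SE 0.044, interval -0.16 to 0.048, limma adjusted p = 0.786), and -0.11 with each array centred.

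The 8 related lists hold 91 further genes of the same pathways, of which 80 were measured and 75 lay above background. None passed an adjusted p of 0.05 in limma. At an unadjusted p under 0.05 there were 8 (10%), 3 with higher and 5 with lower means in KO, against 5.01% of all genes and 6.93% of genes above background. That count was 4 without WT replicate 1 or WT replicate 4, 5 without KO replicate 2, and 6 without KO replicate 1, WT replicate 5 or both. It was 9 without KO replicate 3, KO replicate 4 or WT replicate 3, and 8 without WT replicate 2. With each array centred it was 4, and after quantile normalization 13. Over all 30142 genes the count was 1509 with all arrays. It was 1163 without WT replicate 1, 1005 without WT replicate 4 and 1233 without KO replicate 2. It was 1905, 1773 and 1924 without KO replicate 3, KO replicate 4 and WT replicate 3. Without KO replicate 1, WT replicate 5 or both it was 1118, 1329 and 1139. It was 1167 without WT replicate 2, 1462 with each array centred and 1642 after quantile normalization. Without WT replicate 2 only the all-gene count fell. The median difference of the 80 related genes was -0.026. Of their means 49 were lower in KO, against 35.4% of all genes and 45.5% of genes above background. Every gene named in the next paragraphs had a limma adjusted p of at least 0.786.

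Among 7 measured genes of DNA methylation and hydroxymethylation, 1 had an unadjusted p under 0.05, with a lower mean in KO. This was Dnmt3b, the paralogue of Dnmt3a, at 10.31, 10.32, 10.51 and 10.37 in KO and 10.92, 10.57, 10.56, 10.85 and 11.30 in WT. The groups did not overlap, and the difference was -0.46 (SE 0.15, limma adjusted p = 0.786) and -0.33 without KO replicate 1 and WT replicate 5. Tet3, the paralogue of Tet2, had a difference of -0.36, which was -0.038 without those 2 arrays. Dnmt3l and Wt1 lay below background in the mean of all arrays.

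In the list of isocitrate dehydrogenases and 2-oxoglutarate metabolism, 7 genes were measured, and 2 had an unadjusted p under 0.05, 1 in each direction. D2hgdh encodes the enzyme that removes D-2-hydroxyglutarate, the product of mutant IDH. Its signals were 7.35, 7.62, 7.84 and 7.76 in KO and 7.95, 8.15, 7.88, 7.90 and 8.28 in WT, again with no overlap. The difference was -0.39 (SE 0.12, limma adjusted p = 0.786), and -0.23 without the 2 arrays that stood apart. Idh3g, a subunit gene of the NAD-dependent isocitrate dehydrogenase, differed by 0.14 (SE 0.051), and Idh3a of the same enzyme by -0.18 (SE 0.21). Dnmt3b and D2hgdh were the 2 of 80 related genes (2.5%) whose groups did not overlap, against 0.856% of all genes and 1.2% of genes above background.

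For the Polycomb repressive complex 2 list, all 10 measured genes lay above background, and by limma no unadjusted p was under 0.05. The smallest in each direction were those of Rbbp4, a histone-binding subunit gene (0.084, SE 0.048), and Mtf2, an accessory subunit gene (-0.084, SE 0.067). Mtf2 went to -0.039 without KO replicate 1 and WT replicate 5. Aebp2 differed by 0.034 and Phf1 by -0.14, and without both arrays by -0.047 and -0.034. In the list of ASXL relatives and BAP1 partners, 1 of 9 measured genes had an unadjusted p under 0.05: Ogt, the O-GlcNAc transferase gene, at -0.47 (SE 0.19), and -0.27 without the 2 arrays that stood apart. Its partner gene Hcfc1 differed by -0.30 (SE 0.29), with KO replicate 1 at 12.35 and the other KO arrays at 13.44 to 13.80, and by -0.028 without both arrays. The forkhead genes Foxk1 and Foxk2 differed by 0.15 and 0.066, and by 0.19 and 0.037 without both arrays.

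The SF3A and SF3B list had 2 of 9 measured genes with an unadjusted p under 0.05, both with higher means in KO. Sf3b4 was 7.75, 7.63, 7.82 and 7.88 in KO and 7.63, 7.58, 7.63, 7.51 and 7.37 in WT, so the groups met at 7.63. Its difference was 0.23 (SE 0.071, limma adjusted p = 0.786), and 0.19 without KO replicate 1 and WT replicate 5. Sf3b6, the branch-point contacting subunit gene, differed by 0.41 (SE 0.18), and by 0.29 without both arrays. Sf3b3 and Sf3a3 differed by -0.083 and -0.097, and by -0.042 and -0.095 without both. The list median was 0.0065, with 5 of 9 means higher in KO, and -0.042 with 4 of 9 higher without both arrays.

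For the 6 measured genes of 3′ splice site recognition, every unadjusted limma p was above 0.05. U2af2, the partner gene of U2af1, differed by 0.15 (SE 0.09), with KO replicate 1 at 11.56 and the other KO arrays each at 11.21, and by 0.022 without the 2 arrays that stood apart. Sf1, the branch-point binding protein gene, differed by -0.09, and by -0.0092 without both arrays. Ddx41, a helicase gene that is mutated in familial myeloid neoplasms, differed by 0.099 over all arrays and by 0.23 without both arrays. Prpf8 of the spliceosome core was 12.88 in KO replicate 1 and 13.90 to 14.01 in the other KO arrays. Its difference was -0.22, and -0.051 without both arrays.

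Of the 9 measured SR protein genes other than Srsf2, 1 had an unadjusted p under 0.05, Srsf6, at -0.38 (SE 0.15), and -0.20 without both arrays. Srsf5 differed by -0.53 (SE 0.26), KO replicate 1 being lowest at 12.79, below 13.35 to 13.85 in KO replicates 2 to 4 and the WT range of 13.48 to 14.33. Without both arrays it differed by -0.23. Srsf10 and Srsf11 differed by 0.079 and 0.039, and without both arrays by -0.025 and 0.051.

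Among 23 measured genes of the list of other genes mutated in myeloid neoplasms, 1 had an unadjusted p under 0.05. Nf1, which encodes a brake on RAS, had a difference of -0.20 (SE 0.076), and KO and WT met at 9.68. The cohesin gene Smc1a differed by -0.14 (SE 0.06), the calreticulin gene Calr by 0.17 (SE 0.11) and the transcription factor gene Cebpa by 0.24 (SE 0.20). Without both arrays these were -0.081, 0.25 and 0.088, and Nf1 was -0.17. The list median was -0.13, with 15 of 23 means lower in KO, against 35.4% of all genes and 45.5% of genes above background. Without both arrays the list median was -0.03, with 14 of 23 lower.

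**Figure D3:**
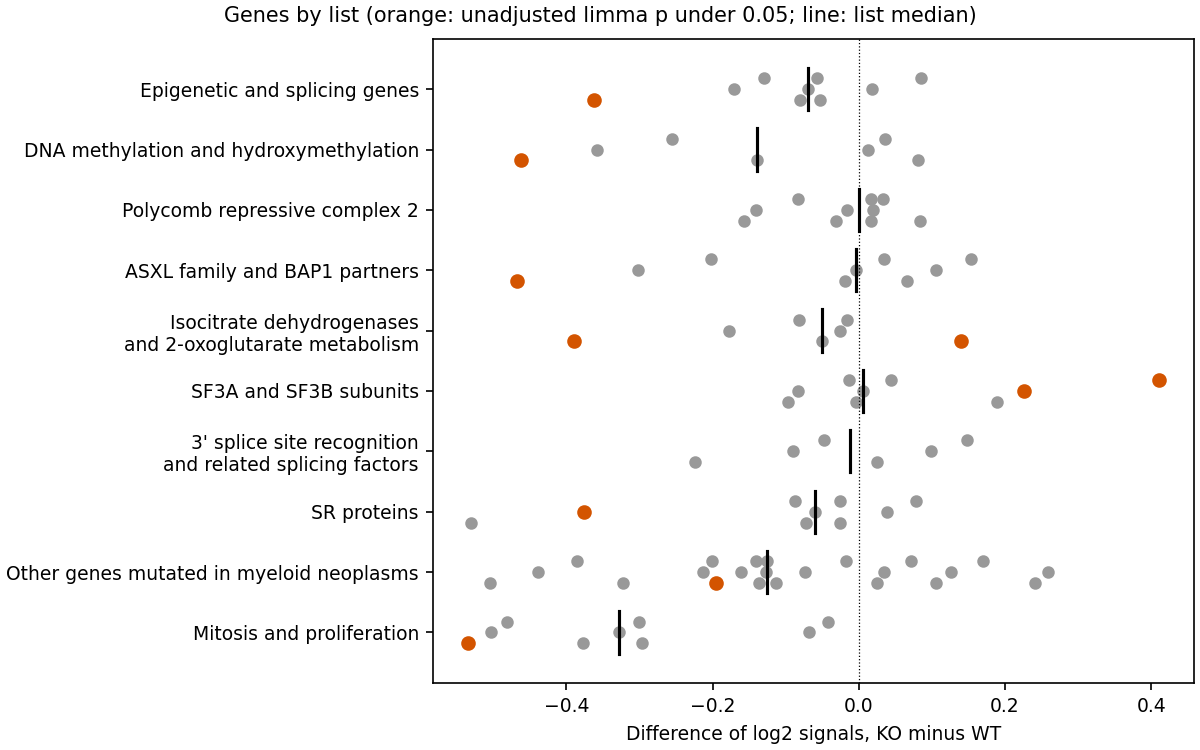
Difference of log2 signals, KO minus WT, for each measured gene of the lists. Each dot is a gene, orange dots have an unadjusted limma p under 0.05, and the vertical line is the list median. Differences run to both sides of 0 in the related lists, and the 9 mitosis genes all lie below 0 with a median of -0.33.

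Across the 9 arrays, the gene most like each of the 9 was sought among 84 genes of the related and mitosis lists by Pearson's r, as a description. Ezh2 was most like Top2a, the topoisomerase gene of dividing cells, with r = 0.88 and Spearman's rho = 0.86 over 9 arrays and r = 0.87 over the 7 arrays left without KO replicate 1 and WT replicate 5. Its r with the proliferation marker Mki67 was 0.59 over 9 arrays and 0.95 over 7. Over 9 arrays the r with Mki67 was larger for Sf3b1 (0.93), Srsf2 (0.81), Tet2 (0.75), Idh2 (0.72) and Asxl1 (0.68), and over 7 arrays these were 0.26, 0.27, 0.26, 0.07 and 0.01. For Dnmt3a, Idh1 and U2af1 it ran from -0.06 to 0.19 over 9 arrays. Ezh2 and Top2a both had their 2 highest values in WT replicates 2 and 3. Of the 9 mitosis genes, all had lower means in KO, against 35.4% of all genes and 45.5% of genes above background. An unadjusted limma p under 0.05 was found for 1, against 5.01% of all genes and 6.93% of genes above background. This was Bub1, at -0.53 (SE 0.23, limma adjusted p = 0.786), while Cdk1 differed by -0.33. Without both arrays Bub1 was -0.41 and Cdk1 -0.26, the median went from -0.33 to -0.26, and all 9 means were still lower in KO.

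Sf3b1 and Tet2 were both most like Tet3, with r = 0.95 and r = 0.91 over 9 arrays, which went to 0.37 and 0.34 over 7. The likeness of these genes thus rests on KO replicate 1 and WT replicate 5. Between each other, Tet2 and Sf3b1 had r = 0.85 over 9 arrays and -0.10 over 7. In Idh2, most like Sf3b3, r went from 0.85 to 0.69, in Asxl1, most like Srsf9, from 0.86 to 0.54, and in Srsf2, most like Hcfc1, from 0.83 to 0.43. The other genes did not fall in this way: Dnmt3a with Cbl went from 0.67 to 0.84, U2af1 with Nras from 0.71 to 0.76 and Idh1 with Sf3b6 from 0.65 to 0.83. Spearman's rho over 9 arrays was 0.68, 0.30 and 0.80 for these pairs, so that of U2af1 with Nras was low. It was 0.73 for Sf3b1, 0.77 for Tet2, 0.70 for Idh2, 0.65 for Asxl1 and 0.53 for Srsf2, each with its most alike gene.

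**Figure D4:**
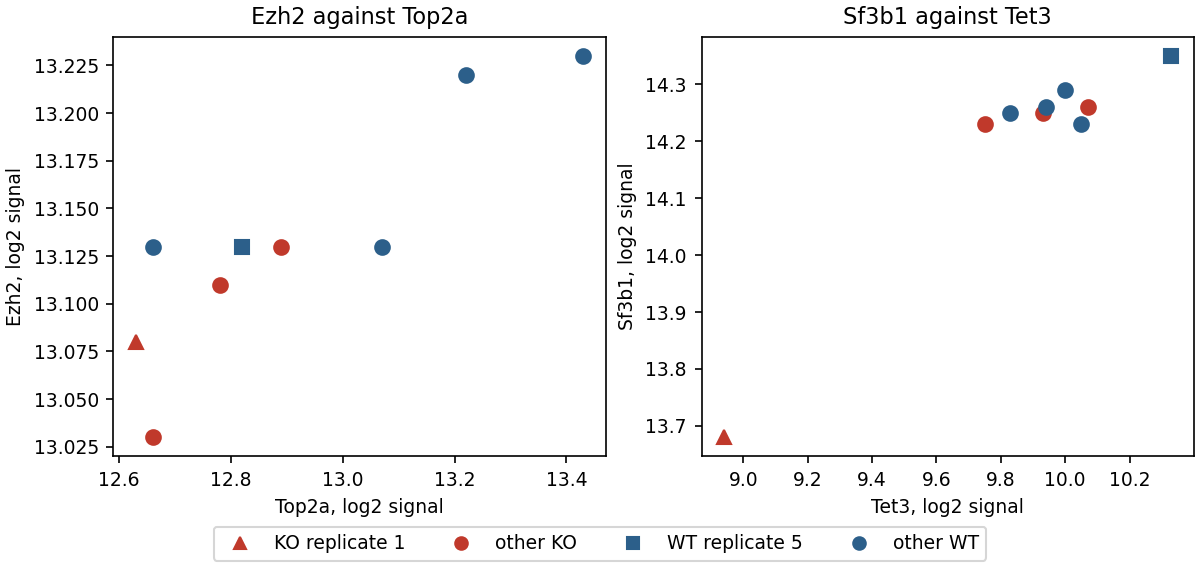
Log2 signal of Ezh2 against Top2a (left) and of Sf3b1 against Tet3 (right), 1 point per array, KO in red and WT in blue, with KO replicate 1 as a triangle and WT replicate 5 as a square. On the right the other 7 arrays lie together between 14.23 and 14.29 for Sf3b1, while on the left the points spread along the whole range.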

How the data were processed

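Expression was measured on Affymetrix whole-transcript arrays, 1 per mouse, for 4 KO and 5 WT mice. The deposited table holds 72688 probesets and was read as log2 signals that the authors summarised and normalized, from 1.84 to 19.45. Not given in the sources used here are the log base, background correction and normalization. The submitters' processing notes name Partek 6.6. Every fold rests on the log2 reading. The labels call each array a biological replicate, read here as 1 mouse each, and name no batch.

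Probesets were named from the platform annotation, and 827 symbols were updated through Entrez identifiers to the RefSeq annotation of GRCm38.p6. The 30604 probesets with exactly 1 distinct symbol gave 30142 genes, each by its brightest probeset; each of the 9 genes has 1 probeset. The groups were compared in limma 3.58.1 (R 4.3.3) by lmFit and eBayes with no intensity trend, and p-values were adjusted by Benjamini-Hochberg over all 30142 genes (threshold 0.05). The script was first tested on simulated data. The number of arrays limits the precision. Single values were also compared by exact two-sided permutation of the mean difference. The 10 genes, the lists and the tests were chosen with earlier results of these data known. The text names the 10 genes, per list up to 2 genes per direction with the smallest unadjusted p, and the gene most like each in profile; Abi1, Kit and Mki67 are checks. A few other cell type markers, and Igll1, were picked with their values in view. Promoter sequences are from RefSeq, and all 10 genes matched.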

Additional observations from a re-analysis of the deposited data

Results flagged for a closer look

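In 4 of the 18 sets of values (9 genes in 2 groups), 1 array lay far from the rest of its group by Dixon's criterion at the 95% level. The nominal rate is about 1 in 20 sets, and repeated values can raise it. The same criterion also flagged arrays in named related genes, Prpf8, Sf3a3 and Ogt among them, so such flags are not particular to these 9 genes. Where values repeat it can flag a small step, as for Foxk2 in KO replicate 3 (9.47 against 9.36). For Tet2, KO replicate 1 read 8.69 where KO replicates 2 to 4 read 9.20 to 9.26. For Sf3b1, the same array read 13.68 and its group 14.23 to 14.26. For Idh1, WT replicate 3 read 10.50, above a range of 10.06 to 10.18 in its group. For U2af1, KO replicate 4 read 9.32, below a range of 9.37 to 9.38.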

How the results depend on the processing

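The 9 differences were recomputed under 17 alternatives: quantile normalization, centring of arrays, dim genes left out, an intensity trend, array weights, the mean of a gene's probesets, each array left out in turn, both arrays that stood apart left out, and a replicate block. None of the 153 values passed (smallest limma adjusted p = 0.665), and 5 changed sign. Leaving dim genes out and the intensity trend alter the errors but not the differences. Each of the 9 genes has 1 probeset, so the mean of probesets leaves the differences as they were too. No sign could change under these settings. For Asxl1 the value was -0.038 with centring and -0.017 to 0.076 with 1 array left out. For Srsf2 it was -0.23 after quantile normalization, -0.13 with centring, 0.026 with array weights, 0.005 without KO replicate 1 and WT replicate 5, and -0.14 to 0.006 with 1 array left out. With array weights 2 genes of 30142 passed in place of 1, Abi1 and Igll1. The count of the 9 genes with an exact permutation p under 0.05 was 1, Tet2, with all 9 arrays. With 1 array left out it was 0 to 1, and 0 without KO replicate 1, 3 or 4 or WT replicate 2, 4 or 5. Without WT replicate 3 the 1 gene was not Tet2 but Idh1, whose groups then did not overlap. In Tet2, KO replicate 2 (9.26) still lay above WT replicate 1 (9.24) there. All 9 genes stayed above background at the percentile 99. Same-numbered KO and WT arrays had correlations of deviations of -0.178, 0.146, -0.013 and 0.27, and 3 of 8 arrays correlated best with their own number, so the numbers were not taken to pair the mice. With the replicate block over the 4 shared numbers 0 of the 9 genes passed (Tet2 -0.28, limma adjusted p = 0.81), and Asxl1 was 0.00, as it was without WT replicate 5.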
